A study of Arabidopsis thaliana with 12 samples.

Results

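PRA1.B6 (AT5G07110) and AT4G01810 are 2 Arabidopsis thaliana genes of the secretory pathway, and their probes differed in opposite directions between the prors1 mutant and the wild type (WT). Each locus was the only gene listed for its probe in the platform annotation, so the pair are 2 of the 692 probes that stood for 1 gene among the 3439 probes of the array. Total RNA was measured on single-channel arrays in 6 WT and 6 prors1 samples, all of ecotype Columbia 0, with a replicate number from 1 to 6 in each title. The labels describe the mutant as lacking prolyl-tRNA synthetase, the enzyme that charges transfer RNA with proline, and they name no allele, treatment, tissue or plant age. No probe stood for PRORS1 alone, so the mutated gene itself was not analysed here. Nothing in the labels says whether the 6 samples of a genotype were separate plants. The SEs, and the p-values given for other genes, therefore rest only on the spread among these samples, and that spread may be technical.

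Proteins made on the endoplasmic reticulum travel to the Golgi in vesicles whose coat, COPII, forms from the small GTPase SAR1, an inner layer of Sec23 and Sec24, and an outer layer of Sec13 and Sec31. Sec23 speeds up GTP hydrolysis by SAR1, and Sec24 binds the cargo. Vesicles are then directed by Rab GTPases, which sit on membranes through a prenyl tail, and prenylated Rab acceptor (PRA1) proteins are small membrane proteins that bind such Rabs. In plants the PRA1 family is large, and in Arabidopsis overproduced PRA1.B6 was found to slow the export of some proteins from the endoplasmic reticulum. AT4G01810 is described as a Sec23/Sec24-type transport protein and has no symbol of its own in the gene table used here.

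Both genes were chosen from earlier results of these samples, in which PRA1.B6 was among the largest increases and AT4G01810 among the largest decreases of single-gene probes. The difference between the genotypes is therefore given below as a description, without a test. Since RNA came from bulk material, a change in the number of cells of a type and a change in RNA per cell cannot be told apart for either gene.

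The arrays of the 2 genotypes differed as a whole, on a deposited intensity scale that ends at 100. The median intensity per array was 0.135 to 0.169 in WT and 0.250 to 0.444 in prors1, while array means were 0.855 to 0.921 and 0.933 to 0.989. Between 368 and 396 probes per WT array and between 215 and 316 per prors1 array were deposited at 0, neither gene among them. Values are shown first as deposited and then after quantile scaling, which gives all arrays the same distribution. A floor at the 5th percentile of all scaled values above 0 (0.0467) then replaced everything dimmer before log2 was taken. How far the difference in array medians contributes to a difference in deposited values was not tested. Within a genotype, samples numbered 1-2, 3-4 and 5-6 resembled each other, with SDs of their log2 differences of 0.355 to 0.449 over 2385 features, against 0.428 to 0.762 for the other pairs of samples, and values are also given for these sets.

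PRA1.B6, the Rab-binding membrane protein gene, was dim in all WT samples and several times brighter in all prors1 samples. Its deposited intensities were 0.0828, 0.109, 0.0922, 0.159, 0.0456 and 0.143 in WT replicates 1 to 6. In prors1 they were 0.688, 0.842, 0.829, 0.912, 0.545 and 0.501 in the same order. The lowest prors1 value lay above the highest WT value, and the sets 1-2 and 3-4 of prors1 were brighter than the set 5-6. WT averaged 0.105 ± 0.0413 and prors1 0.719 ± 0.169 (SD, n = 6 each), a ratio of 6.84. Groups that do not overlap, with prors1 above WT, were common on these unscaled values, at 35.2% of all 3439 probes, and nothing is read from it for a gene chosen by this contrast.

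After quantile scaling the 6 prors1 values of PRA1.B6 again lay above the 6 WT values. WT replicates 1 to 6 stood at -2.78, -2.49, -2.73, -2.07, -3.30 and -1.95 on the log2 scale. The prors1 samples stood at -0.88, -0.59, -0.80, -0.65, -0.91 and -1.07. WT averaged -2.55 ± 0.50 and prors1 -0.82 ± 0.18 (SD, n = 6 each), so that PRA1.B6 was higher by 1.74 ± 0.22 on the log2 scale (SE), or 3.33-fold. Over all features tested, 11.4% had every scaled prors1 value above every WT value.

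AT4G01810, the Sec23/Sec24-type gene, was on the log2 scale the steadier of the pair in WT and the more variable in prors1. Its deposited intensities were 0.519, 0.513, 0.426, 0.422, 0.379 and 0.367 in WT replicates 1 to 6. In prors1 they were 0.353, 0.237, 0.415, 0.586, 0.148 and 0.187. The genotypes overlapped on these values, since prors1 replicate 4 was brighter than every WT sample and prors1 replicate 3 lay within the WT range, while the other 4 prors1 samples were below all WT samples. WT averaged 0.438 ± 0.0654 and prors1 0.321 ± 0.164 (SD, n = 6 each), a ratio of 1.36 of WT over prors1.

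After quantile scaling the overlap of AT4G01810 was gone. WT replicates 1 to 6 stood at -0.52, -0.54, -0.87, -0.91, -0.85 and -0.90 on the log2 scale. The prors1 samples stood at -1.99, -2.62, -2.07, -1.49, -2.74 and -2.40, all below the lowest WT sample, with replicate 4 the nearest to it. WT averaged -0.77 ± 0.18 and prors1 -2.22 ± 0.46 (SD, n = 6 each), so that AT4G01810 was lower in prors1 by a log2 difference of -1.45 ± 0.20 (SE), or 2.74-fold. Every scaled prors1 value lay below every WT value in 14.1% of all features tested, and in 3.49% of probes on the deposited values, where AT4G01810 was not among them.

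**Figure D1:**
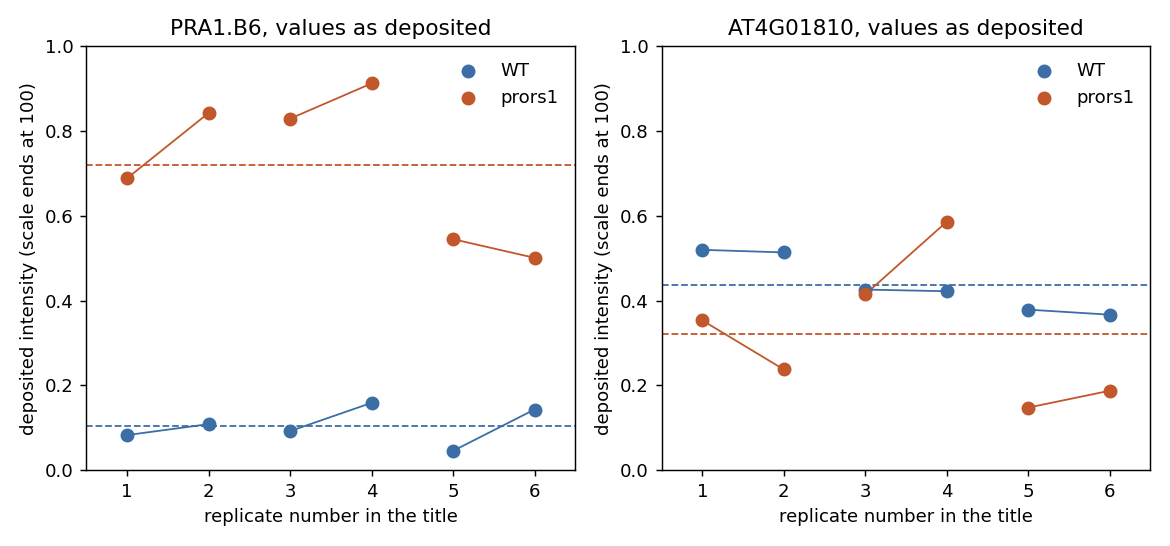
Deposited intensity (y axis, linear from 0, on a scale that ends at 100) of PRA1.B6 and AT4G01810 by replicate number (x axis), with WT in blue and prors1 in orange, a point per sample, dashed lines at the genotype means, and thin lines joining samples 1-2, 3-4 and 5-6. PRA1.B6 is at 0.0456 to 0.159 in WT and at 0.501 to 0.912 in prors1, while the genotypes of AT4G01810 overlap through prors1 replicates 3 and 4.

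Within an array, the place of each probe among the 3439 was taken on the deposited values. It is not changed by a single factor that multiplies the array or by quantile scaling. PRA1.B6 stood at percentiles 23.3 to 51.0 of the WT arrays and at percentiles 71.2 to 79.7 of the prors1 arrays. AT4G01810 stood at percentiles 74.3 to 80.9 of the WT arrays and at 32.7 to 62.5 of the prors1 arrays. The mean shift was 38.4 ± 4.46 percentile points upward for PRA1.B6 and -32.0 ± 4.69 percentile points for AT4G01810 (SE, n = 6 each).

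The ratio of the 2 probes within an array is likewise free of any single factor that multiplies the array. Its level depends on the 2 probes and is not a ratio of transcripts, but its change between arrays can be read. The log2 ratio of PRA1.B6 to AT4G01810 on the deposited values was -2.65, -2.24, -2.21, -1.41, -3.05 and -1.36 in WT replicates 1 to 6. It was 0.96, 1.83, 0.999, 0.64, 1.88 and 1.42 in prors1. All WT values were negative and all prors1 values positive. The means of -2.15 ± 0.67 and 1.29 ± 0.50 (SD, n = 6 each) lay 3.44 ± 0.34 apart (SE), a 10.9-fold shift of one probe against the other. After quantile scaling the shift was 3.19 ± 0.30 (log2, SE), or 9.11-fold. Because the 2 genes were chosen for large differences in opposite directions, a large shift follows from the choice, and it is a description only.

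Scaling set the size of both differences, and for AT4G01810 also whether the genotypes overlapped. The median of all features was 0.91 higher in prors1 on the values as deposited, against -0.02 after quantile scaling, -0.01 after cyclic loess and -0.10 after division by array medians. PRA1.B6 was higher by 2.85 ± 0.30 as deposited, 1.79 ± 0.24 after cyclic loess and 1.70 ± 0.25 after division by array medians (log2, SE, n = 6 each), with all 6 prors1 samples above all WT samples each time. AT4G01810 had differences of -0.59 ± 0.32 as deposited, -1.49 ± 0.22 after cyclic loess and -1.74 ± 0.19 after division by array medians (log2, SE, n = 6 each). Taken relative to the median feature of the same scaling, PRA1.B6 stood 1.76 to 1.94 above it and AT4G01810 between -1.64 and -1.43 from it, a narrower range than that of the differences themselves.

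**Figure D2:**
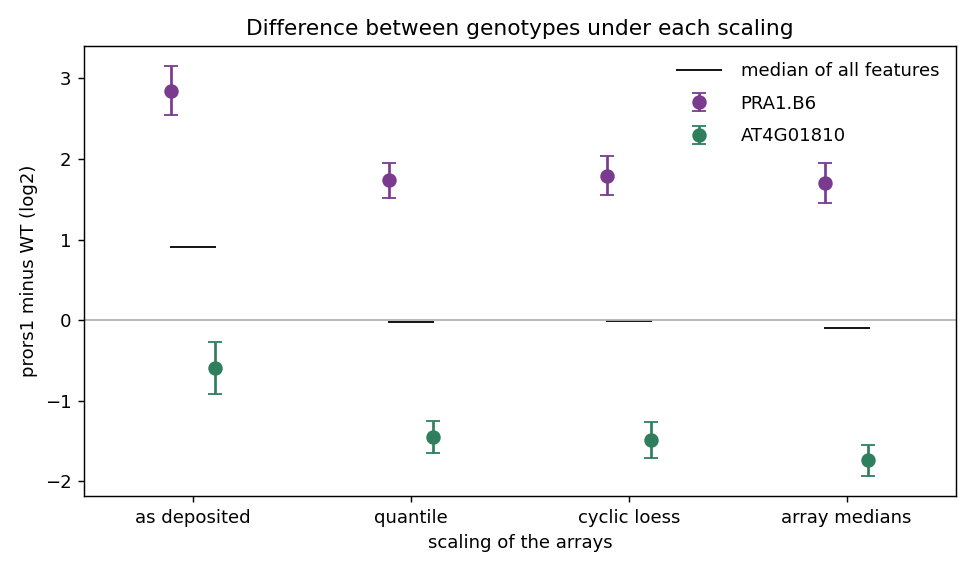
Difference between the genotype means (y axis, prors1 minus WT, log2) of PRA1.B6 and AT4G01810 under each scaling of the arrays (x axis), with bars of 1 SE (n = 6 each) and black dashes at the median of all features. PRA1.B6 is above the median feature and AT4G01810 below it under all 4 scalings, and both sit higher on the values as deposited.

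Samples were also paired across genotypes by replicate number, as described with the processing, to show how evenly each gene behaved. For PRA1.B6 the scaled differences of the 6 pairs were 1.90, 1.89, 1.93, 1.42, 2.39 and 0.88 on the log2 scale. All were positive, and the smallest and the largest belonged to replicates 6 and 5, whose WT samples are the brightest and the dimmest of PRA1.B6 after scaling. For AT4G01810 the scaled differences were -1.48, -2.07, -1.20, -0.58, -1.89 and -1.50, all negative, with the smallest in replicate 4. The SE over pairs was 0.21 for PRA1.B6 and 0.22 for AT4G01810, close to the unpaired values of 0.22 and 0.20.

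As deposited, the same pairs agreed in direction for PRA1.B6 only. Its prors1 sample was brighter than the WT sample of the same number by 1.81 to 3.58 on the log2 scale. AT4G01810 was dimmer in prors1 in 5 of 6 pairs, with ratios of prors1 to WT from 0.390 in replicate 5 to 0.974 in replicate 3, and brighter in replicate 4 with a ratio of 1.39. For the 3 sets of samples, PRA1.B6 was 7.99-fold (1-2), 6.93-fold (3-4) and 5.54-fold (5-6) brighter in prors1. AT4G01810 was 1.75-fold dimmer in set 1-2 and 2.22-fold dimmer in set 5-6, but 1.18-fold brighter in set 3-4. The prors1 arrays of set 3-4 were also those with the highest medians of all 12 arrays, and the part of this in the value of AT4G01810 was not tested. After quantile scaling AT4G01810 was 3.42-, 1.85- and 3.23-fold lower in the 3 sets, again least in set 3-4, and PRA1.B6 was 3.72-, 3.20- and 3.11-fold higher.

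**Figure D3:**
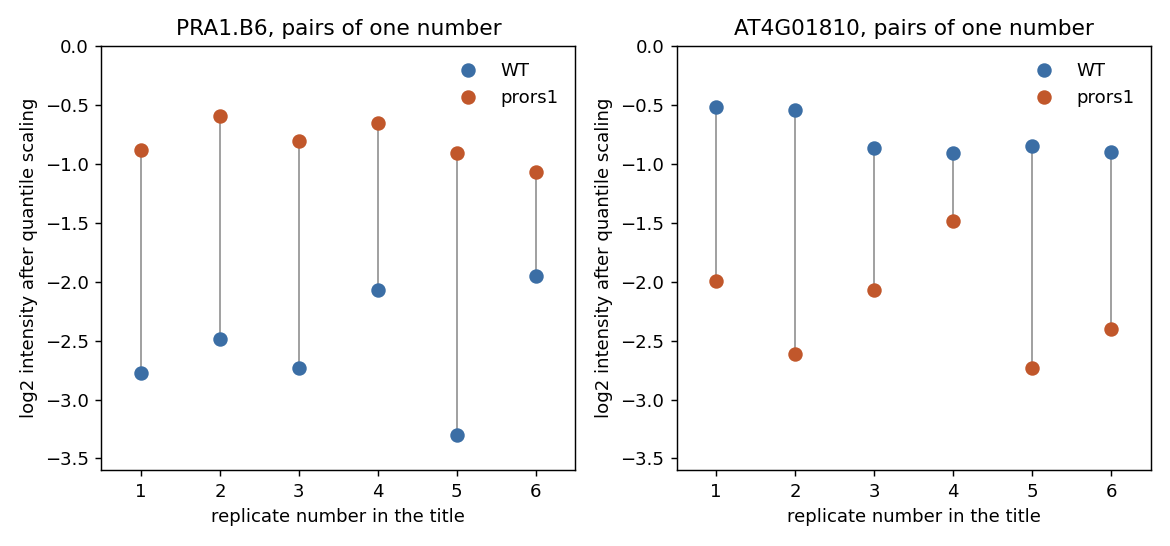
Log2 intensity after quantile scaling (y axis) of PRA1.B6 and AT4G01810 by replicate number (x axis), with WT in blue, prors1 in orange and a grey line joining the samples of one number. Every line runs upward from WT for PRA1.B6, by 0.88 to 2.39, and downward for AT4G01810, by the least in replicate 4.

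As a fold or on the log2 scale, each gene spread most between samples in the genotype where its probe was dimmer. The SD of the deposited intensities of PRA1.B6 went the other way, at 0.0413 in WT and 0.169 in prors1. As deposited, PRA1.B6 varied 3.48-fold among WT samples and 1.82-fold among prors1 samples, whereas AT4G01810 varied 1.42-fold among WT and 3.97-fold among prors1 samples. The scaled SD of PRA1.B6 in WT was 0.50, above that of 160 of the 200 features nearest to it in mean WT level, whose median SD was 0.34. In prors1 its SD was 0.18, above 45 of the 200 features nearest in level (median SD 0.27). AT4G01810 had an SD of 0.18 in WT, above 112 of 200 (median SD 0.18), and of 0.46 in prors1, above 157 of 200 (median SD 0.35). Much of the WT spread of PRA1.B6 lay inside 1 set, since WT replicates 5 and 6 were 1.35 apart on the log2 scale, against 0.29 for replicates 1 and 2 and 0.66 for replicates 3 and 4. Dividing each array by its median left the prors1 samples of PRA1.B6 with an SD of 0.11, against 0.36 as deposited.

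Among the 460 single-gene features that were never at the floor after quantile scaling, PRA1.B6 had the 4th largest increase. The next larger was AT5G39980 at 1.74 and the next smaller AT5G40050 at 1.57 on the log2 scale. AT4G01810 had the 5th largest decrease, between AT4G05070 at -1.53 and AGL54, a MADS-box gene, at -1.41. These places changed with the scaling, as PRA1.B6 was 1st as deposited, 2nd after division by array medians and 4th after cyclic loess. AT4G01810 was 14th as deposited, 14th after division by array medians and 11th after cyclic loess. The places as deposited and after cyclic loess are among 457 features. Among all 658 single-gene features after quantile scaling, with those at the floor in some samples, PRA1.B6 had the 9th largest increase and AT4G01810 the 10th largest decrease. Over all features, whether named or not, 1.54% had an increase at least as large as that of PRA1.B6 and 2.12% a decrease at least as large as that of AT4G01810 after quantile scaling.

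**Figure D4:**
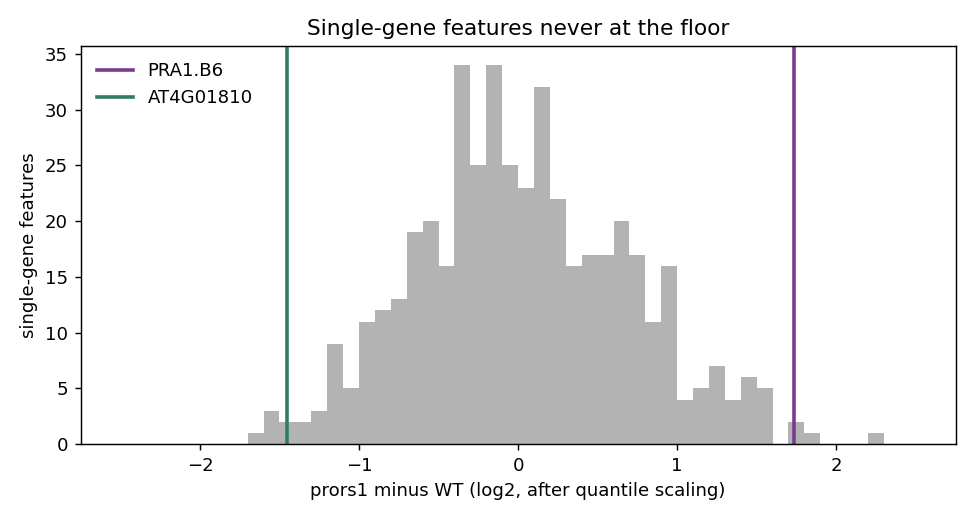
Number of single-gene features never at the floor (y axis, 460 in all) by their difference between genotypes after quantile scaling (x axis, prors1 minus WT, log2, in bins of 0.1). Vertical lines mark PRA1.B6 at 1.74 and AT4G01810 at -1.45, toward the opposite ends of the distribution.

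Other genes of membrane traffic were few on this array. Lists of 262 further loci in 8 groups were drawn up from general knowledge, covering the PRA1 family, the COPII and COPI coats, Rab GTPases, SNAREs, the exocyst, cargo receptors with clathrin and retromer, and folding factors of the endoplasmic reticulum. Of these loci, 1 had a single-gene probe, PRA1.B3 (AT5G05380) of the same subfamily as PRA1.B6. A further 5 probes listed several genes, all of them in the lists, namely 4 for PRA1 genes and 1 for a pair of COPII coat genes. A probe with several genes cannot be assigned to one of them, so these are described without gene names. The other 6 groups were not measured by such probes, and the Rab GTPases and SNAREs are therefore not analysed here.

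None of the 5 other PRA1 features passed the test after quantile scaling (limma, adjusted over all 3303 features), where 42.8% of all features passed, 19.6% with higher and 23.2% with lower levels in prors1. None had an unadjusted p under 0.05 either. Their median difference was 0.03 on the log2 scale, against -0.02 over all features.

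PRA1.B3, another Rab-binding membrane protein gene, was deposited at 0 in WT replicates 1, 2, 4, 5 and 6 and at 0.0989 in WT replicate 3. Its prors1 intensities were 0.0995, 0.154, 0.235, 0.0987, 0.136 and 0.137. The WT samples were thus listed at 0 with 1 exception, while every prors1 sample was above 0. Zeros were more common in WT over the whole array, at 368 to 396 probes against 215 to 316 in prors1. The share of probes with such a split was not counted, and nothing is read from it. After quantile scaling 6 of the 12 values lay at the floor, and the difference was 0.69 ± 0.37 (log2, SE, adjusted p = 0.159 in limma). PRA1.B3 passed in limma as deposited (1.86, adjusted p = 0.000268), where 66.9% of all features passed. It also passed after division by array medians (1.07, adjusted p = 0.0270 in limma), where 47.2% did. With a floor at the 1st percentile it was among 1384 features that passed (2.08, adjusted p = 0.0155 in limma), where the main settings gave 1414 (42.8%). Without WT replicate 3 it was among 1333 (0.99, adjusted p = 0.0152 in limma).

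The 4 probes listing several PRA1 genes are called PRA1 probes 1 to 4 here. PRA1 probe 3 was the brightest, with deposited intensities of 0.441 to 0.646 in WT (median 0.569) and 0.690 to 1.23 in prors1 (median 0.879). After quantile scaling its prors1 samples of set 5-6 stood at 0.14 and 0.21, while the other 4 stood at -0.87 to -0.56, and the difference was 0.03 ± 0.21 (log2, SE, adjusted p = 0.925 in limma). PRA1 probe 2 had a difference of 0.20 ± 0.19 (adjusted p = 0.432), PRA1 probe 4 one of -0.16 ± 0.32 (adjusted p = 0.715) and PRA1 probe 1, with 7 of 12 values at the floor, one of -0.32 ± 0.22 (adjusted p = 0.280; log2, SE, limma). As deposited, PRA1 probe 2 (1.46, adjusted p = 0.000483), PRA1 probe 3 (0.73, adjusted p = 0.00318) and PRA1 probe 4 (1.30, adjusted p = 0.0146) were called higher in prors1 in limma. So were 2030 of all 3307 features on those values, whose median feature was 0.91 higher, above the difference of PRA1 probe 3. PRA1.B6 had a larger difference than each of these 5 features under all 4 scalings with the floor at the 5th percentile, but with the floor at the 1st percentile PRA1.B3 stood at 2.08 and PRA1.B6 at 1.74. No gap was tested, since PRA1.B6 was chosen for its size.

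The probe for a pair of COPII coat genes, which belong to the same coat as Sec23, was lower in prors1 after quantile scaling. Its deposited intensities were 0.0800, 0.0124, 0.194, 0.0676, 0.103 and 0.0558 in WT replicates 1 to 6. In prors1 they were 0.116, 0, 0.199, 0, 0.0332 and 0.0160. The genotypes overlapped, with replicate 3 the brightest in both. Scaled means were -2.92 ± 0.88 for WT and -4.13 ± 0.47 for prors1 (log2, SD, n = 6 each). Like 23.2% of all features, this probe was called lower in limma (adjusted p = 0.0196), with a 2.32-fold decrease (log2 difference -1.21 ± 0.37, SE). With 5 of 12 values at the floor, WT replicate 2 among them, the size of this decrease depends on the floor. The log2 difference was -1.99 with the floor at the 1st percentile and -0.87 at the 10th. In limma the call was lost as deposited (-0.50, adjusted p = 0.431) and with the sets of samples as a random block (adjusted p = 0.155).

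**Figure D5:**
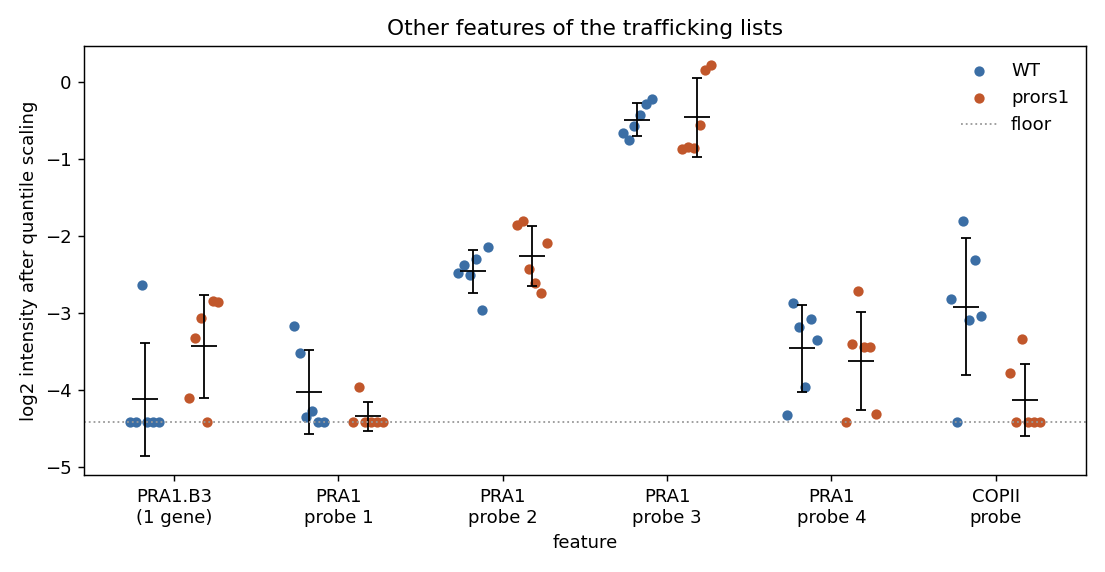
Log2 intensity after quantile scaling (y axis) of the 6 other features of the trafficking lists (x axis), a point per sample with WT in blue and prors1 in orange, black bars for mean ± SD (n = 6 each) and a dotted line at the intensity floor. The genotypes overlap in all 6 features, and PRA1.B3, PRA1 probe 1 and the COPII probe have many values at the floor.

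Genes whose pattern over the 12 samples was most like that of each gene were found by the root mean square difference between scaled log2 profiles, each centred on its own mean. For PRA1.B6 the nearest of 459 single-gene features were AT4G17260 (0.35), AT5G39980 (0.36), AT1G03660 (0.40), AT3G49740 (0.41) and AT4G19900 (0.41), against a median of 1.002 over the 459. Their own differences between genotypes were 1.30 to 1.74 on the log2 scale. For AT4G01810 the nearest were CBL, the cystathionine beta-lyase gene of methionine synthesis (0.33), PSBY, a small photosystem II protein gene (0.35), AT1G17160 (0.37), AT4G20690 (0.39) and AT1G04420 (0.44), against a median of 0.89. These 5 had differences between -1.32 and -0.91. On the values as deposited their differences were -0.37 for CBL, -1.12 for PSBY, -0.73 for AT1G17160, -0.25 for AT4G20690 and -0.02 for AT1G04420, against -0.59 for AT4G01810 itself. The measure takes in the difference between genotypes that chose PRA1.B6 and AT4G01810, and it is a description.

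In the gene table of TAIR10.1, PRA1.B6 has 1 annotated transcript and AT4G01810 has 3, and the probes do not say which of the 3 they detect. The protein-coding neighbours of PRA1.B6 on the chromosome are WRKY26, a transcription factor gene, and SNX2b, which codes for a sorting nexin. Those of AT4G01810 are AGY1, which codes for the SecA motor protein of chloroplast protein transport, and ABCB3, an ATP-binding cassette transporter gene. The platform annotation listed none of these 4 neighbours for any probe, so their levels are not analysed here.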

How the data were processed

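The authors deposited 1 table of linear intensity values with a column for each of the 12 samples. Dye or label, scanner, background correction and scaling are not given in the sources used here. Genes were assigned to probes from the platform annotation, possibly an old one, and 690 of 692 single-gene probes matched the TAIR10.1 gene table. Its build is not tied to the probes, so no coordinates are given.

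Arrays were quantile-scaled, values were floored at the 5th percentile of positive values (13.7% of values), and log2 was taken. Dropping features that never rose above the floor left 3303, of which 658 stood for 1 gene. Genotype was the only term of the two-sided test in limma 3.58.1 (R 4.3.3; lmFit, eBayes), with p-values adjusted by Benjamini-Hochberg and called at 0.05. Precision is limited by the number of arrays.

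PRA1.B6, AT4G01810 and all lists were chosen with earlier results of these data known. A rule named these 2 genes, every measured list member, the 5 nearest profiles of each and its neighbours in order of difference. Words for membrane traffic were also searched in gene names and added no single-gene probe. Probes listing several genes were added after the annotation was seen.

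Over 2385 features above the floor in every sample, same-numbered WT and prors1 samples deviated together from their genotype means (correlation 0.346 to 0.489), so the numbers were taken to pair the samples. No such correlation is given for samples of different numbers, so pairing by number is not told apart from pairing by set. The labels do not say what a number stands for. Alternatives were other scalings, floors and filters, a replicate block, samples 1-2, 3-4 and 5-6 averaged or as a random block, and leaving out each sample.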

Additional observations from a re-analysis of the deposited data

Results flagged for a closer look

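In 2 of 16 groups (6 samples each) 1 sample stood far from the rest. Chance gives about 1 in 20 groups where values are not tied, a rate that does not apply here, since in both groups the other 5 values were tied at the floor and any value above it stands apart. Neither concerned PRA1.B6 or AT4G01810. PRA1.B3 was highest in WT replicate 3 at -2.63 on the scaled log2 scale, with the other 5 WT samples at the floor of -4.42. For PRA1 probe 1 the prors1 replicate 2 stood highest at -3.96 and the other 5 prors1 samples stood at the floor of -4.42.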

How the results depend on the processing

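PRA1.B6 was higher and AT4G01810 lower in prors1 under all 4 scalings and without each sample in turn, a direction for which both were chosen. The other floors, the replicate block and averaging could not move their differences, since neither is at a floor and the design is balanced. As deposited their differences were 2.85 and -0.59 on the log2 scale, against 1.74 and -1.45 after quantile scaling. Leaving out each sample gave 1.56 to 1.83 for PRA1.B6, -1.65 to -1.34 for AT4G01810 and 3.01 to 3.41 for their log2 ratio. Over all features 1414 passed the test, 2212 as deposited, of which 2030 were higher and 182 lower, and 749 with samples 1-2, 3-4 and 5-6 averaged, which uses fewer samples. The share of calls that were higher was 45.9% after quantile scaling, 91.8% as deposited and 35.5% after division by array medians. Leaving out each sample gave 1283 to 1490. With the replicate number as a block 1664 passed, and no call on a list feature changed. Of the single-gene list features (PRA1.B3), none was called, and 1 was called as deposited, after division by array medians, with the floor at the 1st percentile and without WT replicate 3, a range of 0 to 1 over left-out samples. With the several-gene probes, 1 of 6 features was called, where 42.8% of all features were. As deposited 4 of the 6 were called, where 66.9% of all features were. With the sets as a random block 0 of the 6 were called, and 996 over all features. Without the dimmest 25% of features only PRA1 probes 2 and 3 were left of the list features, and neither was called. The COPII probe was dropped by that filter, so its call was not tested there. Signs turned for PRA1 probe 1 as deposited (0.11), for PRA1 probe 4 as deposited (1.30), after division by array medians (0.23) and after cyclic loess (0.16), and for PRA1 probe 3 after division by array medians (-0.42) and without WT replicates 1 (-0.01) and 2 (-0.02) and prors1 replicates 5 (-0.09) and 6 (-0.10), with a range of -0.10 to 0.12 over left-out samples. For these the cause was not tested. The floor limits PRA1.B3, PRA1 probe 1 and the COPII probe, of which 5 to 7 of 12 values lay there.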
